A study of Homo sapiens with 4 samples.

Results

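The comparison described here sets the array labelled serum-free against the array labelled serum in U87TR-Da cells with DACH1 induced. U87TR-Da is a derivative of U87MG, an established human glioblastoma line, made so that doxycycline turns on DACH1, a transcriptional repressor of the Dachshund family. Total RNA was read on Affymetrix oligonucleotide arrays, and the pair holds 2 of the 4 arrays, chosen by their titles. The other 2 come from the same line with DACH1 silenced, 1 in each medium. The medium labelled serum was DMEM with 10% fetal bovine serum, and the medium labelled serum-free was a Neurobasal medium that held the N-2 and B-27 supplements, EGF and basic FGF. A doxycycline line of 1 µg/mL for 72 h stands on the labels of all 4 samples, those with DACH1 silenced included, so both arrays of the pair share it. The sources used here do not give whether U87TR-Da is a single clone, or how long the cells had been in each medium. This leaves 1 array per condition, so a difference between the 2 arrays has no error and no test, and the number of arrays limits every value.

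Serum carries lipids, lysophosphatidic acid, thrombin, hormones and matrix proteins, and cells given serum are known to assemble actin stress fibres and to switch on immediate early genes. Neurobasal medium with EGF and basic FGF is used to grow glioma cells as stem-like cultures, and these growth factors signal through receptor tyrosine kinases to the kinases ERK1 and ERK2. The B-27 and N-2 supplements bring insulin, transferrin, selenium and hormones in place of serum. A medium change of this kind can therefore touch growth factor feedback, matrix, cytoskeleton, lipid synthesis and cell division, and the genes were grouped along these lines.

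DACH1 itself differed between the 2 arrays. Its brightest probe set read 4431 labelled serum and 875.1 labelled serum-free, which was 5.06-fold lower, against 126.0 and 32.5 in the silenced cells. The induced arrays lay above both silenced arrays in either medium. A further probe set for DACH1 read 24.7 and 2.9, and the last read 4.0 and 6.7, under the level at which genes were compared. Since DACH1 was lower on the array labelled serum-free, its level and the medium label cannot be told apart within this pair.

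All 6 markers of a glioblastoma line of mesenchymal type lay at or above the median of all signals on both arrays, with summed signals of 20918 and 22985. Most of either sum came from VIM, CD44 and S100A6. The dimmest of the set were CHI3L1 (21.4 and 103.1) and NES (35.8 and 21.9), whose lower signals lay little above that median. The astrocyte markers reached that median in 1 of 6 cases labelled serum and 2 of 6 labelled serum-free (sums 53.4 and 146.2), with GFAP at 1.6 and 7.1 and S100B at 1.8 and 3.9. Neuronal markers did so in 2 and 3 of 5 cases (2338 and 5300), nearly all of it TUBB3, a tubulin gene that glioma lines also express. The defining neuronal gene RBFOX3 read 4.0 and 3.3. Oligodendrocyte markers gave 1 and 1 of 4 (105.2 and 55.6), those of microglia and blood 1 and 0 of 4 (42.4 and 16.2), those of endothelium 1 and 1 of 4 (38.2 and 51.5) and those of epithelium 0 and 0 of 3 (17.9 and 18.8). The arrays read RNA of whole cultures, so fewer cells with a transcript and less of it in each cell cannot be told apart.

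Groups of genes lay on both sides of what the components of these media are known to induce. Targets of ERK signalling were lower on the array labelled with EGF and basic FGF, actin and contractile genes that serum is known to raise were lower on the array labelled serum, and genes of sterol synthesis were not higher without serum. Immediate early genes, which serum is known to raise, were higher on the array labelled serum. Their values are given below. Which medium each array holds was not tested, and "labelled serum" and "labelled serum-free" keep to the labels throughout.

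Of 19775 genes named by a probe set of their own, 12371 reached the median of all signals (17.2) on at least 1 of the 2 arrays and were compared. Signals under 10.9 were set to that floor, and a fold against it is written as "at least". At 2-fold, 1732 genes (14.0%) were higher and 1255 (10.1%) were lower on the array labelled serum-free, and the median over all genes compared was a log2 difference of 0.01. Each list count below stands against these shares of all genes compared. A gene that passed through 1 array alone had to differ, and with both arrays required to reach the median signal 1299 genes were higher and 956 lower. Centring each array on its median log2 signal turned this split to 1440 higher and 1635 lower, and moved the median of all genes to -0.13. A share of 58.0% of the calls was thus higher as deposited and 46.8% after centring. The calls were spread over the range of brightness: 21.6% of 2866 genes with a brighter signal under 50, 24.3% of 3819 from 50 to 200, 25.9% of 4193 from 200 to 1000 and 23.6% of 1493 at 1000 or more. Genes with other probe sets gave a check within the arrays. Among 703 other probe sets with a signal of 200 or more, belonging to 488 of the called genes, 698 (99.3%) had the same direction and 563 (80.1%) were 2-fold different that way. With the mean of all probe sets, CDK1, CCND3, MMP2, LSS, SLC11A2, SMAD6, OAS3, EYA1, ASNS, SKIL, NOLC1, MYLIP, TAP2, SOX9, HES1 and EYA4, named below, kept their direction and differed by less than 2-fold.

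**Figure D1:**
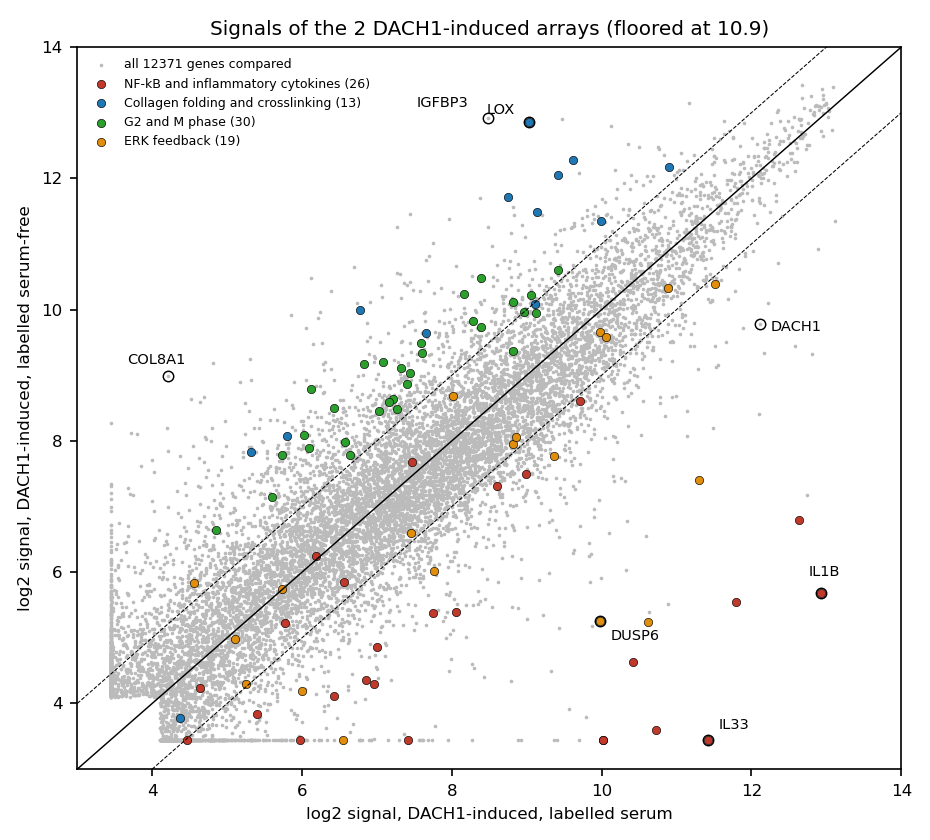
Signal of each of 12371 genes in DACH1-induced cells, labelled serum on the horizontal and labelled serum-free on the vertical axis, both on a log2 scale with signals under 10.9 set to that floor; the lines mark equality and a 2-fold difference, colours mark the members of 4 lists (NF-kB, collagen folding, G2 and M phase, ERK feedback) and rings the genes written beside them. IL1B (7794.5 and 51.3) lies farthest below the band among the labelled genes measured on both arrays, and COL8A1 and IGFBP3 lie above it.

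The largest differences measured on both arrays were in genes of inflammation. IL1B, which encodes the cytokine interleukin 1 beta, read 7794.5 labelled serum and 51.3 labelled serum-free, a 152-fold lower signal. IL1RN, whose product blocks the same receptor, read 6375 and 110.6 (57.6-fold lower), and 4 other probe sets for it were lower as well. The agonist and its antagonist were thus both bright on 1 array and both dim on the other. IL24, a cytokine gene of the IL10 family, read 1692 and 12.1 (139.8-fold lower). The alarmin gene IL33 read 2740.3 and 2.1, which is at least 251-fold lower against the floor.

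Chemokine and growth factor genes of the same list followed. CXCL8, whose product draws neutrophils, read 3547 and 46.6 (76.1-fold lower), and CXCL2 of the same family 1364 and 24.7 (55.2-fold lower). CCL20, a ligand of the receptor CCR6, read 1041 and 3.3, and CSF3, the granulocyte colony-stimulating factor gene, 1041 and 2.0. Each of those was at least 95.5-fold lower. IL6 and LIF, cytokines that act through gp130, had modest signals labelled serum: IL6 read 124.5 and 19.6 (6.35-fold lower) and LIF 215.1 and 41.6 (5.17-fold lower). In silenced cells IL6 read 5184 and 31.6, so the pair of induced arrays started from a far lower level.

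The list of NF-kB targets and inflammatory cytokines held 30 genes named on the array, and 26 passed the filter. At 2-fold 21 members were lower and 0 higher, and the median log2 difference was -2.43. The feedback inhibitors of NF-kB were among them. NFKBIA, which holds NF-kB in the cytoplasm, read 841.0 and 389.4 (2.16-fold lower), and TNFAIP3, a ubiquitin-editing brake on the pathway, 387.6 and 158.2 (2.45-fold lower). Of the subunits, RELB read 127.5 and 29.1 (4.38-fold lower), while NFKB1 (176.4 and 204.6) and NFKB2 (72.7 and 75.9) differed by less than 1.2-fold. PTGS2, the inducible prostaglandin synthase gene, read 94.3 and 57.8 here, a 1.63-fold lower signal, against 3155 and 59.8 in the silenced pair. SOD2, the mitochondrial superoxide dismutase gene, read 510.7 and 179.5 (2.85-fold lower). The 4 members that did not pass the filter stay uncounted, among them CCL2 at 6.3 and 0.7.

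NF-kB binds short palindrome-like sites, and the promoters of CCL20 and CXCL2, a pair of the genes with the largest differences, are shown for that reason. The stretches are from RefSeq (GRCh38.p14), 5′ to 3′ on the strand of the gene, with the matches to the NF-kB motif in capitals.
CCL20: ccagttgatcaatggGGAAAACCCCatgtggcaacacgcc
CXCL2: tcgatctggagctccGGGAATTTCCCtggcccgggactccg
The CCL20 stretch lies at chr2:227813748-227813787 on the plus strand, 55 to 94 bases upstream of the start of the gene. The CXCL2 stretch lies at chr4:74099248-74099288 on the minus strand, 53 to 93 bases upstream, and holds 2 overlapping matches. The motif was found on either strand in the 250 bases upstream of 11 of the 26 listed genes with a promoter in the table, 42.3%, against 9.57% of 27305 promoters. Of those 11 genes 8 passed the filter here. Over all genes compared it was about as common in those lower (11.7%) as in those higher (10.2%).

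Matrix proteases did not move as a group. The list of proteases and their inhibitors had 16 of 19 named members past the filter, 4 at least 2-fold higher and 5 lower, and a median of -0.08. MMP1, the interstitial collagenase gene, read 883.3 and 13.8 (64.0-fold lower). MMP2, the gelatinase gene, ran the other way at 3183 and 6531 (2.05-fold higher, or 0.91 on the log2 scale after median centring, under 2-fold). Among inhibitors, TIMP1 read 8832 and 2599.5 (3.40-fold lower), while TIMP3, which is held in the matrix, read 18.4 and 292.8 (15.9-fold higher), with all 4 of its probe sets higher. TFPI2, a Kunitz-type inhibitor of matrix-bound serine proteases, read 6838.5 and 144.7 (47.3-fold lower). ADAMTS5, an aggrecanase gene, read 393.2 and 57.5 (6.84-fold lower). PLAT, the tissue plasminogen activator gene, read 50.5 and 192.8 (3.82-fold higher).

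Feedback genes of ERK signalling were lower on the array labelled with EGF and basic FGF. DUSP6, the cytoplasmic ERK phosphatase gene, read 1012 labelled serum and 38.1 labelled serum-free (26.6-fold lower). SPRY2, a Sprouty inhibitor of receptor signalling, read 2509.9 and 168.8 (14.9-fold lower), and the Ets factor gene ETV4 93.1 and 7.1 (at least 8.54-fold lower). ETV5 of the same Ets family read 658.6 and 217.6 (3.03-fold lower), and the nuclear phosphatase gene DUSP4 216.8 and 64.7 (3.35-fold lower). Of 20 named members 19 passed the filter. At least 2-fold differences were lower in 8 and higher in 1, with a median of -0.87. The exception was SPRY1, at 23.6 and 57.1 (2.42-fold higher).

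Immediate early genes, which growth factors and serum switch on within minutes, had the same tilt. EGR1, a zinc finger factor, read 1571 and 38.0 (41.3-fold lower), ATF3 911.0 and 86.7 (10.5-fold lower), and FOS 109.5 and 6.5 (at least 10.0-fold lower). EGR1 is a member of the ERK feedback list too, and was the lowest of both lists. NR4A3, an orphan nuclear receptor gene, read 114.9 and 16.8 (6.84-fold lower), and the phosphatase gene DUSP1 3662 and 1571 (2.33-fold lower). All 23 named members passed, and 10 were lower and 1 higher at 2-fold, for a median of -0.89. The higher one was FOSL2, an AP-1 member, at 404.0 and 883.2 (2.19-fold). MYC (471.4 and 525.4) and JUND (798.1 and 783.6) differed by less than 1.2-fold.

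Among ligands of the EGF receptor, 3 were lower with them. EREG, the epiregulin gene, read 471.5 and 43.9 (10.7-fold lower), HBEGF, the heparin-binding ligand, 331.2 and 47.1 (7.03-fold lower), and TGFA 725.8 and 142.2 (5.10-fold lower). TGFA was not lower in the silenced pair, at 109.5 and 185.7. The receptor gene EGFR read 766.8 and 1178 (1.54-fold higher), FGFR1 402.3 and 426.4, and FGF2, which encodes basic FGF, 209.3 and 172.7. FGF1, another ligand of the FGF receptors, read 7.4 and 54.8 (at least 5.03-fold higher), and EGF itself 4.4 and 18.9 (at least 1.73-fold higher), so ligands lay on both sides. Of 14 members of this family past the filter, 2 were at least 2-fold higher and 4 lower, with a median of -0.06.

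**Figure D2:**
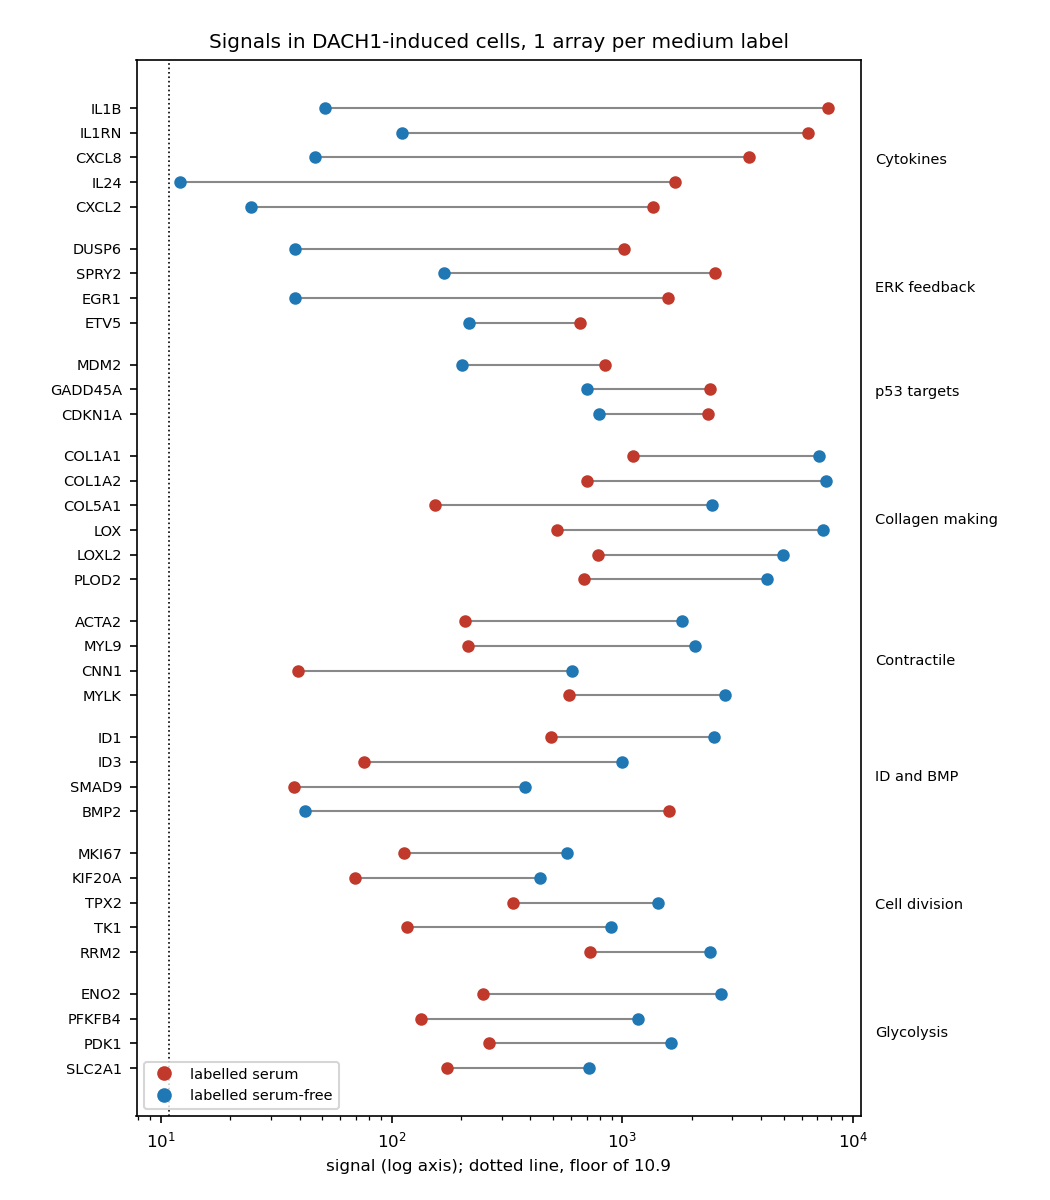
Signals of selected genes in DACH1-induced cells on a log scale, 1 point for the array labelled serum and 1 for the array labelled serum-free, joined by a line, grouped by function; the dotted line marks the floor of 10.9. The cytokine, ERK feedback and p53 target genes drawn have their higher point on the array labelled serum, as does BMP2, and the collagen-making, contractile, ID, cell division and glycolysis genes drawn have it on the array labelled serum-free.

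Genes of cell division were higher on the array labelled serum-free. KIF20A, a kinesin of the final stage of mitosis, read 69.6 labelled serum and 440.9 labelled serum-free (6.33-fold higher). MKI67, the gene of the proliferation antigen Ki-67, read 113.3 and 576.8 (5.09-fold higher), and BIRC5, which encodes the passenger protein survivin, 135.2 and 588.6 (4.35-fold higher). The spindle genes TPX2 (335.0 and 1424) and PRC1 (287.4 and 1210.1) were 4.25-fold and 4.21-fold higher. All 30 members of the G2 and M phase list passed the filter and had a positive difference, and 27 were at least 2-fold higher, with a median of 1.55. The 3 below 2-fold were NUSAP1 (501.3 and 994.0), AURKA (556.0 and 983.1) and ECT2 (451.5 and 658.6). The driver genes CDK1 (534.6 and 1196) and CCNB1 (451.7 and 1110.0) were 2.24-fold and 2.46-fold higher.

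Late cell cycle genes are known to be controlled through CCAAT boxes and a downstream cell cycle homology region, CHR. MKI67 and KIF11, which encodes a spindle motor and read 86.2 and 363.0 (4.21-fold higher), are shown as examples with both. The CHR (TTTGAA or TTCGAA on either strand) and CCAAT matches, on either strand, are in capitals.
MKI67: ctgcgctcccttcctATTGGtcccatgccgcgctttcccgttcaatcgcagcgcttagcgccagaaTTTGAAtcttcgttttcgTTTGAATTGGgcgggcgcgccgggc
KIF11: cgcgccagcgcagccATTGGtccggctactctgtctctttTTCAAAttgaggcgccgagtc
The MKI67 stretch, chr10:128126428-128126536 on the minus strand, runs from 113 to 5 bases upstream of the start and holds 4 matches, of which the last 2 overlap. KIF11 is given from 68 to 8 bases upstream, at chr10:92593062-92593122 on the plus strand, with 2 matches. A CHR was found in 14 and a CCAAT box in 21 of 25 promoters of this list, 56.0% and 84.0%, against 14.6% and 33.0% of all promoters. Both stood together in 13 of the 25 promoters and in 5.24% of all. Over all genes compared, a CHR stood in 11.5% of those higher and 12.6% of those lower, and a CCAAT box in 35.8% and 35.2%.

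DNA replication genes were higher too, with a smaller list median (1.11 against 1.55), although TK1 differed more than any G2 and M phase gene. TK1, the thymidine kinase gene, read 116.3 and 891.5 (7.67-fold higher), RRM2, a ribonucleotide reductase subunit, 725.2 and 2409 (3.32-fold higher), and TYMS, thymidylate synthase, 854.1 and 2702 (3.16-fold higher). UHRF1, which couples replication to DNA methylation, read 472.2 and 1448 (3.07-fold higher), and the helicase subunit gene MCM7 168.9 and 480.6 (2.85-fold higher). Of 27 members, all past the filter, 15 were at least 2-fold higher and 0 lower, and the median is the one given above. PCNA, the sliding clamp, read 1040.3 and 1428 (1.37-fold higher), and RFC4, a clamp loader subunit, was the only member below 0 in this pair, at 565.2 and 481.2. The E2F sites of TYMS and UHRF1 are shown since E2F factors are known to drive this group, with the matches to TTTCCCGC (here in the reverse direction) in capitals.
TYMS: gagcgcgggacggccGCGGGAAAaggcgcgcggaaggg
UHRF1: aaatgccgagttttcGCGGGAAAaaaatc
They lie at chr18:657599-657636 and chr19:4909472-4909500, both on the plus strand, 17 to 54 and 1 to 29 bases upstream of the start. TTTCCCGC or TTTGGCGC stood on either strand in 11 of 24 promoters of the list, 45.8%, and in 1.96% of all. Over all genes compared, these letters stood in 3.16% of those higher and 2.31% of those lower.

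Signals of clustered histone genes ran against those of the replication genes. H2AC6 read 670.8 labelled serum and 99.5 labelled serum-free (6.74-fold lower), H2BC5 803.0 and 154.6 (5.19-fold lower), and the linker histone gene H1-2 222.0 and 82.4 (2.69-fold lower). H2BC12 read 1408 and 461.4 (3.05-fold lower). Of 11 named members 9 passed, and 7 were lower and 0 higher at 2-fold, for a median of -1.75. H2AZ1, a variant made from a polyadenylated transcript and not confined to S phase, was the one above 0, at 2436 and 3983 (1.64-fold higher). SLBP, whose product binds the stem-loop of histone messages, read 1199 and 1246. Histone genes are near-identical copies, so probe sets can read more than their named member. Whether these probe sets read histone messages with or without a polyadenylated end was not tested. The signals thus do not give the histone output of S phase.

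The list of CDK inhibitors and quiescence genes, which also holds cyclin genes, was split. CDKN1A, the p21 gene, read 2350.0 and 793.9 (2.96-fold lower), whereas CDKN2D, a member of the INK4 family, read 33.9 and 120.3 (3.55-fold higher, and 0.91 on the log2 scale over the mean of its probe sets). CCND1, the cyclin gene that mitogens raise, read 2329 and 695.5 (3.35-fold lower), and CCND3 141.9 and 338.9 (2.39-fold higher). In all, 3 of 14 members past the filter were at least 2-fold higher and 4 lower. CCND3 is among the higher and CCND1 among the lower, so these counts are not of inhibitors alone. The median of -0.51 turned to 0.12 with the mean of all probe sets. The p53 response list leaned down. MDM2, the ubiquitin ligase that limits p53, read 838.4 and 201.0 (4.17-fold lower), and GADD45A, a stress sensor gene, 2403 and 699.9 (3.43-fold lower). TP53I3, an oxidoreductase gene, was the exception at 66.0 and 172.1 (2.61-fold higher). Of 18 members 8 were lower and 1 higher at 2-fold, for a median of -0.94, while BAX read 136.5 and 136.4.

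Fibrillar collagen genes were higher on the array labelled serum-free. COL1A1 and COL1A2, which encode the chains of type I collagen, read 1112 against 7105 and 706.6 against 7620.0 on the array labelled serum-free, 6.39-fold and 10.8-fold higher. Other probe sets for COL1A1 differed by more, at 150.8 and 5785.1, 43.2 and 1177.0, and 21.1 and 324.1, while a further one stayed under the floor. COL5A1, a chain of type V collagen that nucleates fibrils, read 154.7 and 2458 (15.9-fold higher), and COL8A1, a short-chain collagen, 18.6 and 506.3 (27.2-fold higher). With each gene read from its brightest probe set, COL8A1 had the largest higher difference measured on both arrays among genes with a signal of 200 or more. FN1, the fibronectin gene, read 1306 and 5901 (4.52-fold higher), and FBN1, the fibrillin gene, 1347 and 4248 (3.15-fold higher). Of 22 members 18 passed the filter. There were 10 at least 2-fold higher and 0 lower, with a median of 1.06, and 2 below 0, one of them COL15A1 at 27.3 and 15.8.

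The enzymes that fold and crosslink collagen were higher in nearly the whole list. LOX, the lysyl oxidase gene, read 521.7 labelled serum and 7389.9 labelled serum-free (14.2-fold higher), and LOXL3, a relative, 109.0 and 1024 (9.39-fold higher). PLOD2, a lysyl hydroxylase gene, read 683.0 and 4226 (6.19-fold higher), P4HA1, a prolyl hydroxylase subunit, 1016 and 2622 (2.58-fold higher), and SERPINH1, the collagen chaperone HSP47, 565.4 and 2879 (5.09-fold higher). These are enzymes and a chaperone that act on the collagen chains above. Of 13 members past the filter 11 were at least 2-fold higher and 0 lower, and the median of 2.35 was the highest of the 52 lists. ADAMTS2, a procollagen peptidase gene, was the member below 0, at 20.7 and 13.7.

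Matricellular proteins sit in the matrix and signal to cells. THBS1, the thrombospondin 1 gene, read 18.5 and 230.6 (12.5-fold higher), SPARC 830.0 and 4321 (5.21-fold higher), and TGFBI, a TGF-beta induced adhesion protein, 2292 and 9078 (3.96-fold higher). SPP1, the osteopontin gene, read 1599 and 3988 (2.49-fold higher). Running the other way was THBS2, at 197.0 and 91.3 (2.16-fold lower), and TNC, the tenascin gene, read 3471 and 3165. Among 16 members 8 were at least 2-fold higher and 1 lower, with a median of 1.04. Matrix receptors shared this in part: ITGA5, the alpha chain of the fibronectin receptor, read 794.7 and 2486 (3.13-fold higher), its partner ITGB1 5742 and 6270.5, and ITGA2, a collagen receptor chain, 103.2 and 39.4 (2.62-fold lower). LAMB3, a chain of an epithelial laminin, read 782.4 and 78.0 (10.0-fold lower). Integrins and laminins had 8 of 19 members at least 2-fold higher and 2 lower, with a median of 0.60.

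**Figure D3:**
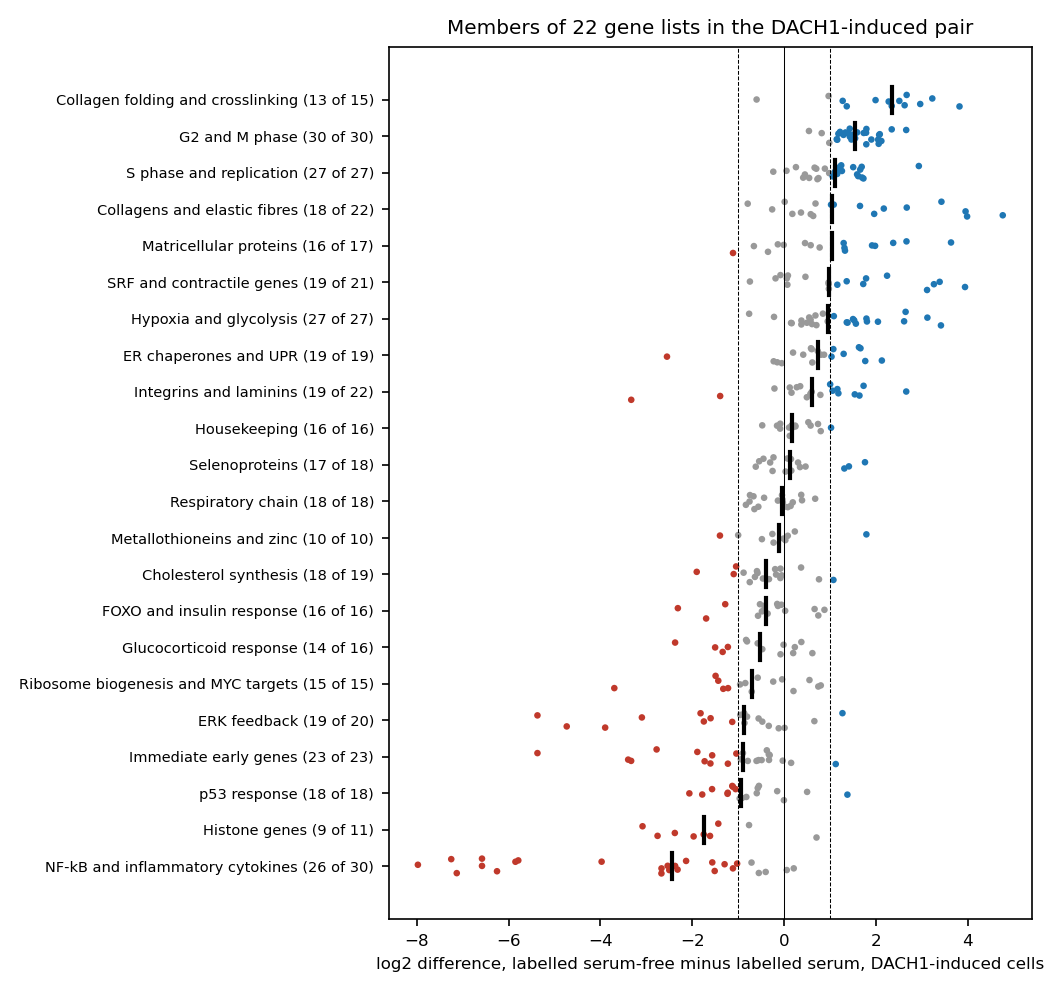
Log2 difference of the members of 22 of the 52 gene lists in DACH1-induced cells, labelled serum-free minus labelled serum; each point is a member past the filter, blue if at least 2-fold higher and red if at least 2-fold lower, the black bar is the median, the solid line marks 0 and the dashed lines a 2-fold difference. Collagen folding and crosslinking (2.35) and G2 and M phase (1.55) have the highest medians, and NF-kB and inflammatory cytokines (-2.43) the lowest.

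Contractile and cytoskeletal genes, which the serum response factor SRF and its actin-sensing partners are known to control, were higher on the array labelled serum-free. CNN1, the smooth muscle calponin gene, read 39.4 and 606.7 (15.4-fold higher), ACTA2, smooth muscle actin, 208.1 and 1806.5 (8.68-fold higher), and MYL9, a myosin light chain, 214.7 and 2067 (9.63-fold higher). MYL9 was 0.70 higher on the log2 scale without probe sets ending in _x_at or _s_at. TAGLN, the transgelin gene, read 20.7 and 217.3 in its brightest probe set and 24.5 and 197.5 in another, while the last read 20.8 and 3.7. Of 19 members past the filter 9 were at least 2-fold higher and 0 lower, with a median of 0.98. SRF itself read 88.1 and 52.7 (1.67-fold lower), and ACTB, the cytoplasmic actin gene, 6537 and 10935 (1.67-fold higher).

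MYLK, the myosin light chain kinase gene (586.9 and 2785, 4.75-fold higher), and CNN2, the non-muscle calponin gene (118.2 and 408.6, 3.46-fold higher), are shown for their CArG boxes, the sites that SRF binds, in capitals.
MYLK: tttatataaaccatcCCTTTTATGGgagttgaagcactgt
CNN2: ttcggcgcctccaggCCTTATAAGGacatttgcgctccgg
The first lies at chr3:123620618-123620657 on the minus strand, 70 to 109 bases upstream of the start, and the second at chr19:1026504-1026543 on the plus strand, 65 to 104 bases upstream. A CArG box stood in 7 of 20 promoters of the list, 35.0%, and in 1.14% of all, and 5 of those 7 genes were compared. It was about as common in genes higher (1.36%) as in genes lower (1.50%) over the whole pair.

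Targets of YAP and TEAD, which respond to tension and cell shape, were partly higher. AJUBA, a LIM domain regulator of the Hippo pathway, read 64.7 and 301.3 (4.66-fold higher), CCN1 316.2 and 779.1 (2.46-fold higher), and CCN2 183.8 and 252.7 (1.37-fold higher). NT5E, an ectonucleotidase gene, read 3223 and 729.7 (4.42-fold lower). In this list 7 of 19 members were at least 2-fold higher and 1 lower, with a median of 0.46. The TGF-beta response list had a median of 0.03, with 5 of 17 at least 2-fold higher and 2 lower. TGFB2, a ligand, read 93.2 and 393.7 (4.22-fold higher), and its receptor gene TGFBR2 331.1 and 1106 (3.34-fold higher). On the other side lay SKIL, a Smad corepressor gene, at 600.3 and 193.5 (3.10-fold lower), and TSC22D1 at 7179 and 643.4 (11.2-fold lower).

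BMP signalling genes were split by role. The ID genes, direct Smad targets that encode inhibitors of helix-loop-helix factors, were higher in 3 cases: ID1 read 491.7 and 2507 (5.10-fold), ID2 289.7 and 869.6 (1.59 on the log2 scale) and ID3 75.7 and 998.9 (13.2-fold). ID4 ran the other way at 87.5 and 48.7 (1.80-fold lower). The receptor Smad gene SMAD9 read 37.8 and 379.9 (10.1-fold higher), and the inhibitory SMAD6 37.0 and 151.6 (4.10-fold higher). Ligands lay lower: BMP2 read 1593 and 42.1 (37.8-fold lower) and INHBA, an activin subunit gene, 1897 and 45.9 (41.3-fold lower, with its 2 other probe sets also lower). Extracellular antagonists differed among themselves, with GREM1 at 1505 and 3799 (2.52-fold higher), CHRDL1 at 22.2 and 191.4 (8.62-fold higher) and FST at 200.3 and 93.9 (2.13-fold lower). In all 10 of 19 members were at least 2-fold higher and 5 lower, and the median of 1.07 turned to -0.46 without probe sets ending in _x_at or _s_at.

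Hypoxia and glycolysis genes leaned higher on the array labelled serum-free. ENO2, an enolase gene, read 249.7 and 2673 (10.7-fold higher), PFKFB4, which sets the level of a glycolytic activator, 133.6 and 1165 (8.72-fold higher), and PDK1, the kinase that blocks pyruvate dehydrogenase, 265.2 and 1628 (6.14-fold higher). SLC2A1, the glucose transporter gene, read 173.3 and 716.5 (4.13-fold higher), while SLC2A3, another transporter of the family, read 999.1 and 860.1. VEGFA, the angiogenic target of hypoxia-inducible factors, did not follow, at 4873 and 2881 (1.69-fold lower), and its 3 other probe sets were lower too. All 27 named members passed, and 13 were at least 2-fold higher and 0 lower, with a median of 0.95. GAPDH (7213 and 8109) and LDHA (6630.3 and 8634) differed by 1.12-fold and 1.30-fold.

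Hypoxia-inducible factors bind a short core, ACGTG, and ENO2 and ANKRD37, a small ankyrin repeat gene that read 73.0 and 458.3 (6.28-fold higher), are shown with the core in capitals.
ENO2: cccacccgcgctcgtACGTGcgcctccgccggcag
ANKRD37: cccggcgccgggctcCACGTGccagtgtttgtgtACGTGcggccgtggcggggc
The ENO2 stretch is at chr12:6914447-6914481, 99 to 133 bases upstream, and that of ANKRD37 at chr4:185396664-185396717, 124 to 177 bases upstream, both on the plus strand. In ANKRD37 there are 3 matches, since the palindrome counts on both strands. The core stood in 13 of 24 promoters of the list, 54.2%, against 18.7% of all promoters (12 of those 13 genes were compared), and in 24.5% of the genes higher and 20.96% of those lower in this pair.

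**Figure D4:**
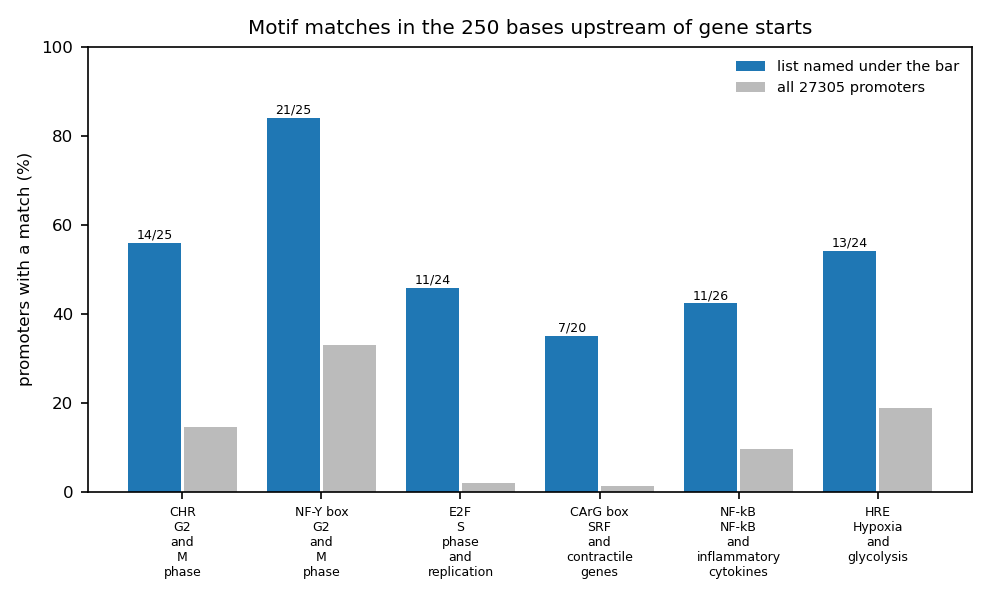
Percent of promoters (250 bases upstream of the start) that hold each of 6 motifs, with bars from 0: in blue the promoters of the gene list named under the motif, with their number above the bar, and in grey all 27305 promoters. The list bars run from 35.0% (CArG box) to 84.0% (NF-Y box, the CCAAT letters), and the grey bars from 1.14% to 33.0%.

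Respiratory chain genes did not differ at 2-fold. In this list 0 of 18 members were higher and 0 lower, with a median of -0.04. The widest were UQCRC2, a subunit of complex III, at 1564 and 880.4 (1.78-fold lower), and NDUFB8 of complex I, at 976.1 and 1564 (1.60-fold higher, and 1.34 on the log2 scale with the mean of all probe sets).

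Sterol synthesis genes, which cells without a lipid source are known to raise through SREBP2, were not higher as a group on the array labelled serum-free. HMGCS1, which makes the precursor of mevalonate, read 796.0 and 213.3 (3.73-fold lower), and MSMO1, a methylsterol oxidase gene, 2954 and 1435 (2.06-fold lower). IDI1, the isomerase of isoprenoid synthesis, read 1039 and 486.5 in its brightest probe set. Its 4 probe sets disagreed: those under a signal of 100 were higher, so the difference changed sign without probe sets ending in _x_at or _s_at (1.41). LSS, lanosterol synthase, was the only member at least 2-fold higher, at 395.7 and 835.3 (2.11-fold, or 0.95 on the log2 scale after median centring). The median was -0.39 over 18 members, with 1 higher and 3 lower at 2-fold. The silenced pair had HMGCS1 at 253.2 and 243.6 and a list median of 0.06. Fatty acid synthesis had a median of 0.11, with 2 of 13 members higher and 1 lower. SCD, the desaturase gene, read 1649.6 and 4195 (2.54-fold higher), and LPIN1, a phosphatidate phosphatase gene, 1415 and 507.9 (2.79-fold lower).

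Among LXR targets, which sense oxysterols, 1 of 9 members was at least 2-fold higher and 2 lower, with a median of 0.08. MYLIP, the ligase that removes the LDL receptor, read 66.6 and 21.2 (3.14-fold lower), and ABCA1, the cholesterol exporter, 1008 and 1128. LPCAT3, a phospholipid acyltransferase gene, read 94.6 and 46.0 in 1 probe set and 37.3 and 92.4 in the other. Fatty acid oxidation and lipid droplet genes had 3 of 14 higher and 2 lower, with a median of -0.07. HILPDA, a droplet protein gene that hypoxia raises, read 133.1 and 1325 (9.96-fold higher), and ACADVL, which starts oxidation of very long chains, 250.8 and 1029 (4.10-fold higher).

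The amino acid response, run by the factor ATF4, had members on both sides. STC2, a secreted glycoprotein gene, read 174.3 and 2798 (16.1-fold higher), and SLC7A11, the cystine transporter gene, 23.3 and 241.8 (10.4-fold higher). TRIB3, a pseudokinase that restrains ATF4, read 405.9 and 74.6 (5.44-fold lower), DDIT3, which encodes the stress factor CHOP, 954.7 and 274.8 (3.47-fold lower), and ASNS, asparagine synthetase, 766.5 and 325.1 (2.36-fold lower). In this list 5 of 28 (17.9%) were at least 2-fold higher and 6 (21.4%) lower, with a median of 0.16. Over all genes compared the shares were 14.0% and 10.1%. Chaperones of the endoplasmic reticulum leaned higher: CRELD2 read 270.0 and 1184 (4.39-fold), PDIA6, a disulfide isomerase, 697.0 and 2379 (3.41-fold) and HSP90B1 1032 and 3277 (3.18-fold). HSPA5, the chaperone BiP, read 3439.7 and 6308 (1.83-fold higher), and the sensor gene ERN1 245.0 and 41.9 (5.85-fold lower). There 7 of 19 were higher and 1 lower, with a median of 0.73. Heat shock genes had 2 of 11 higher and 0 lower, with a median of 0.27. Of them HSPB8, a small chaperone gene, read 471.3 and 1256 (2.67-fold higher), and HSP90AA1 6332 and 7622.

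Antioxidant genes had a median of 0.12, with 5 of 21 at least 2-fold higher and 1 lower. NQO1, the quinone reductase target of NRF2, read 388.2 and 1394 (3.59-fold higher), and CAT, catalase, 421.4 and 1273 (3.02-fold higher). HMOX1, heme oxygenase, read 1497.5 and 2841 (1.90-fold higher) against 182.4 and 2357 in the silenced pair (12.9-fold higher). Selenoproteins, which the selenium of N-2 could touch, had 3 of 17 higher and 0 lower, with a median of 0.12. MSRB1, a methionine sulfoxide reductase, read 74.6 and 185.7 (2.49-fold higher), whereas GPX1 (3019 and 3356) and GPX4 (2475 and 2010.3), the glutathione peroxidases, differed by less than 1.3-fold. Iron genes had 0 of 10 higher and 1 lower, with a median of 0.10. TFRC, the transferrin receptor, read 4342 and 5168, and SLC11A2, the iron importer, 717.3 and 311.2 (2.30-fold lower), where a dim probe set without the _s_at or _x_at ending was 0.30 higher. The list of metallothionein and zinc genes had 1 of 10 higher and 1 lower, with a median of -0.12. The lower one was MTF1, which is not a metallothionein gene, at 304.6 and 115.9. Other probe sets for MTF1 read 74.7 and 78.2, and 149.6 and 121.5. MT2A read 8358 and 8310.2, and MT1M 119.8 and 416.0 (3.47-fold higher).

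Hormone response genes leaned lower. Glucocorticoid targets were lower in 4 of 14 cases and higher in 0, with a median of -0.52. KLF9, a factor that glucocorticoid and thyroid hormone raise, read 180.5 and 34.9 (5.17-fold lower, but -0.57 on the log2 scale with the mean of its probe sets), while TSC22D3, the GILZ gene, read 399.1 and 458.9. Retinoid and thyroid targets had 5 of 15 lower and 2 higher. Their median of -0.28 turned to 0.26 when both arrays had to reach the median signal. TGM2, transglutaminase 2, read 930.4 and 77.2 (12.1-fold lower), DHRS3, a retinal reductase gene, 261.8 and 48.2 (5.43-fold lower), and THRB, a thyroid hormone receptor gene, 57.1 and 8.5 (at least 5.24-fold lower). FOXO targets, which insulin holds down, had 3 of 16 lower and 0 higher, with a median of -0.39. BCL6, a repressor gene, read 829.1 and 167.1 (4.96-fold lower), and the insulin receptor substrate gene IRS2 419.3 and 403.9. The list named for IGF binding proteins had 3 of 8 higher and 0 lower, with a median of 0.60. It also counted the ligand gene IGF1 and the mRNA-binding protein genes IGF2BP2 and IGF2BP3, none of which reached 2-fold. IGFBP3, the most abundant serum carrier of IGFs, read 356.1 and 7752.5 (21.8-fold higher), and IGFBP6 2234 and 2634.

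Lysosomal genes had 5 of 17 members at least 2-fold higher and 0 lower, with a median of 0.54. GPNMB, a lysosomal glycoprotein gene, read 173.9 and 1372 (7.89-fold higher), CTSA, the protective cathepsin, 1561 and 4214 (2.70-fold higher), and LAMP1 2092 and 4488 (2.15-fold higher, or 0.98 on the log2 scale after median centring). SQSTM1, the autophagy receptor p62, read 2483 and 1292 (1.92-fold lower). Ribosome biogenesis and MYC targets were lower, unlike the cell division genes, with 0 of 15 higher, 5 lower and a median of -0.70. ODC1, which makes polyamines, read 4383 and 338.4 (12.95-fold lower), and NOLC1, a nucleolar protein gene, 921.1 and 396.1 (2.33-fold lower). NCL (2335 and 2272) and NPM1 (5304 and 4512), the abundant nucleolar proteins, differed by less than 1.2-fold.

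Interferon-stimulated genes lay on both sides, with 4 of 19 (21.1%) at least 2-fold higher and 3 (15.8%) lower and a median of -0.02. Over all genes compared the shares were 14.0% and 10.1%, not far from these. OAS3, an antiviral synthetase gene, read 15.5 and 55.8 (3.60-fold higher), GBP1, a guanylate-binding protein gene, 85.8 and 279.4 (3.26-fold higher), and IRF7, a factor that amplifies interferon, 91.9 and 31.3 (2.94-fold lower). MHC class I genes had 0 of 14 higher and 2 lower, with a median of -0.07. B2M, the shared light chain, read 8188 and 9088, and the 2 lower members were the peptide transporter genes TAP1 (164.7 and 78.5) and TAP2 (127.8 and 50.7).

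Serum-free medium with EGF and basic FGF is used to keep glioma stem cells, and stem and progenitor factors were not higher on the array so labelled. In this list 13 of 24 members passed, 0 were at least 2-fold higher and 6 lower, with a median of -0.76. SOX4, a progenitor factor, read 471.9 and 6.4 (at least 43.3-fold lower), with another probe set at 251.1 and 7.3. OLIG2, the oligodendrocyte lineage factor of glioma stem cells, read 79.9 and 12.3 (6.50-fold lower), SOX9 88.2 and 42.2 (2.09-fold lower) and NES, the nestin gene, 35.8 and 21.9. Notch genes had 1 of 9 higher and 4 lower, with a median of -0.41. NOTCH2, a receptor gene, read 2696 and 1316 (2.05-fold lower), HES1, the direct target, 44.7 and 3.0 (at least 4.10-fold lower), and LFNG, a glycosyltransferase that tunes Notch, 2.5 and 56.1 (at least 5.15-fold higher).

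Neuronal markers had 7 of 18 members past the filter, and 5 were at least 2-fold higher and 0 lower, with a median of 1.25. That median is the value of MAP2, a microtubule protein gene, which read 4.4 and 25.9 (at least 2.38-fold higher) and so passed the filter through the array labelled serum-free alone. The largest difference was that of ENO2, at 249.7 and 2673 (10.7-fold higher), which is counted in the hypoxia and glycolysis list as well. TUBB3, which glioma lines also express, read 2249 and 4902 (2.18-fold higher). SNAP25, a synaptic SNARE gene, read 68.6 and 352.5 (5.14-fold higher), and GAP43, a growth cone protein gene, 17.9 and 85.4 (4.77-fold higher). Labelled serum, GAP43 lay close to the level at which genes were compared. The other 11 members of the list were under the filter. Astrocyte markers had 2 of 8 higher and 1 lower, with a median of 0.12. SLC1A3, the glutamate transporter GLAST, read 12.8 and 104.1 (8.13-fold higher) and ALDOC, a brain aldolase, 184.7 and 641.8 (3.47-fold higher). ALDOC is a member of the hypoxia and glycolysis list too. Oligodendrocyte markers had 4 of 10 past the filter, with 0 higher and 1 lower, and a median of -0.18. The lower one was PDGFRA, the PDGF receptor alpha gene, at 656.2 and 9.7 (at least 60.2-fold lower). Markers of immune and endothelial cells had 5 of 12 past it, with 0 higher and 1 lower, the receptor gene KDR at 127.8 and 23.1 (5.53-fold lower), and a median of -0.81. Epithelial and keratin genes had 2 of 7 higher and 1 lower, with a median of 0.50. FLG, the filaggrin gene, read 14.4 and 196.2 (13.6-fold higher) and KRT8 45.6 and 18.2 (2.51-fold lower).

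Mesenchymal genes lay on both sides, with 5 of 21 (23.8%) at least 2-fold higher and 3 (14.3%) lower and a median of 0.28. Over all genes compared the shares were 14.0% and 10.1%. VIM (6366 and 7626) and CD44 (5666 and 4214), the vimentin and hyaluronan receptor genes, differed by 1.20-fold and 1.34-fold in their brightest probe sets. Other probe sets for CD44 did not all match that size. Some were lower by more, as at 4215.4 and 1710.2 or at 394.5 and 49.7. Another was lower by less, at 2958.9 and 2384.2, and a dim one read 34.7 and 36.6. PRRX1, a homeobox factor of mesenchyme, read 952.3 and 125.3 (7.60-fold lower), RUNX2, the osteoblast factor, 286.3 and 813.1 (2.84-fold higher), and SNAI2, a repressor of epithelial genes, 2796 and 2491. Wnt genes had 5 of 14 higher and 2 lower, with a median of 0.36 that turned to -0.73 without probe sets ending in _x_at or _s_at. DKK1, the secreted Wnt antagonist, read 25.8 and 408.1 (15.8-fold higher), and WNT5B, a ligand, 30.6 and 218.9 (7.15-fold higher). WNT7B ran the other way at 250.9 and 33.2 (7.56-fold lower).

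Angiogenic factors and PDGF genes had 4 of 15 members higher and 2 lower, with a median of -0.11. APLN, the apelin gene, read 5.3 and 162.3 (at least 14.9-fold higher), VEGFB 56.3 and 247.9 (4.40-fold higher), and NRP2, a semaphorin and VEGF co-receptor, 1964 and 407.4 (4.82-fold lower). PDGFRA was among the latter, and it was dim in both silenced arrays, at 19.7 and 0.9. Clock genes had 0 of 12 higher and 1 lower (CRY1, 423.0 and 201.2), with a median of -0.13. The network of DACH1, its EYA partners and PAX genes had 8 of 12 members past the filter, with 1 higher and 3 lower and a median of -0.68. EYA1, a coactivator phosphatase, read 33.4 and 87.2 (2.61-fold higher) and EYA4 134.3 and 47.4 (2.83-fold lower). Housekeeping genes had a median of 0.18, with TUBB (3317 and 6756, 2.04-fold higher, and 0.90 on the log2 scale after median centring) the only 1 of 16 at 2-fold. The 10 genes with the highest mean signal on the 2 arrays, among them the mitochondrial COX1 (8730.3 and 10693) and EEF1A1 (8182 and 8929), had log2 differences from 0.06 to 0.74.

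Some genes with the largest differences belong to no list above. TMEM255A, a membrane protein gene, read 69.7 and 1429 (20.5-fold higher), FPR1, the formyl peptide receptor, 28.1 and 582.3 (20.7-fold higher), and SEMA3C, a secreted guidance cue, 57.9 and 967.7 (16.7-fold higher). STON2, an endocytic adaptor gene, read 13.2 and 279.3 (21.2-fold higher), ALPK2 13.9 and 274.3 (19.7-fold higher) and WFDC21P 23.0 and 400.2 (17.4-fold higher). The costimulatory receptor gene TNFRSF9 read 9.8 and 308.2, at least 28.3-fold higher. At the other end, OCA2, a melanosome transporter gene, read 642.4 and 22.5 (28.6-fold lower), PI3, the elafin gene, 680.3 and 3.6 (at least 62.4-fold lower), and TCIM 828.6 and 4.4 (at least 76.0-fold lower).

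The silenced pair shares no array with the induced pair, and the medium label can be set beside it. Among 12906 genes compared there, 1972 (15.3%) were at least 2-fold higher and 1580 (12.2%) lower on the array labelled serum-free. Of the genes compared in both pairs, 11903, those higher in both numbered 1121, which is 66.6% of the higher genes of the induced and 61.8% of those of the silenced pair. Those lower in both numbered 831, 68.3% and 55.5%. Only 11 genes were higher in induced and lower in silenced cells at 2-fold, and 18 the reverse. Across these genes, which are not independent replicates and share the scaling of their arrays, the differences of the pairs correlated with Pearson's r of 0.812. The median size of a log2 difference was 0.57 in induced and 0.61 in silenced cells.

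**Figure D5:**
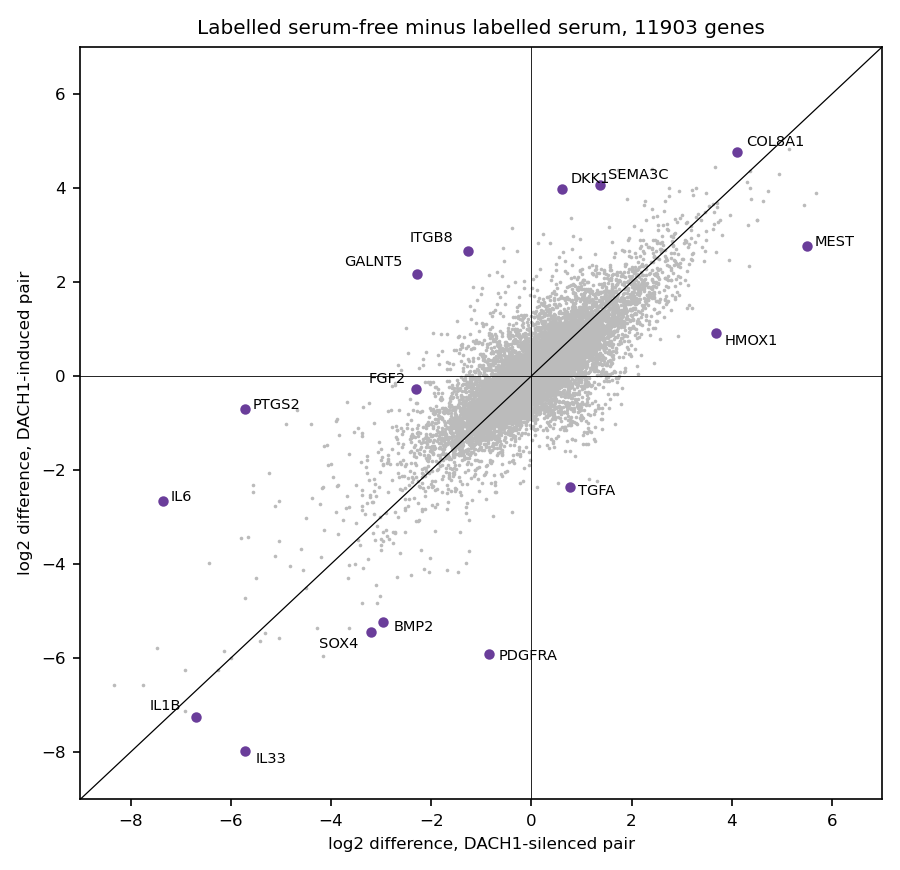
Log2 difference labelled serum-free minus labelled serum of each gene in silenced cells (horizontal) and DACH1-induced cells (vertical), for 11903 genes compared in both; the diagonal marks equal differences, and purple points are the genes written beside them. Most genes lie along the diagonal, and GALNT5, DKK1 and BMP2 are among those away from it.

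Several lists had unequal medians in the 2 pairs, and none of these differences could be tested. NF-kB targets and cytokines had -2.43 in induced and -4.67 in silenced cells, where 25 of 28 members were lower. Immediate early genes had -0.89 and -0.33, YAP and TEAD targets 0.46 and 1.15, G2 and M phase genes 1.55 and 2.03, and hypoxia and glycolysis genes 0.95 and 1.47. Collagen folding genes (2.35 and 2.58), S phase genes (1.11 and 1.23) and ERK feedback genes (-0.87 and -0.97) lay closer together.

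Single genes differed more, mostly through their level on the array labelled serum. DKK1 was 15.8-fold higher in induced cells and 1.53-fold higher in silenced cells, where it read 374.3 and 571.5. FPR1 (229.8 and 765.7) and SEMA3C (586.3 and 1518) were 3.33-fold and 2.59-fold higher in the silenced pair. GALNT5, an enzyme that starts mucin-type glycosylation, read 55.3 and 248.8 in induced and 1202 and 245.7 in silenced cells, so it was 4.50-fold higher in the first pair and 4.89-fold lower in the second. BDNF, the neurotrophin gene, read 188.4 and 351.8 against 704.3 and 203.0, and RAB27B, a secretory vesicle GTPase gene, 682.6 and 979.1 against 4033 and 941.6. For each of these the arrays labelled serum-free lay closer together than those labelled serum.

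Other genes were brighter on the induced than on the silenced array labelled serum. BMP2 was 37.8-fold lower in induced and 7.79-fold lower in silenced cells, where it read 395.2 and 50.7. EPB41L4B, a FERM domain protein gene, read 813.4 and 296.6 in induced (2.74-fold lower) and 187.4 and 409.8 in silenced cells (2.19-fold higher). With the mean of its probe sets it was -0.37 on the log2 scale in induced cells. TBC1D2, a Rab GTPase-activating protein gene, read 889.6 and 327.5 (2.72-fold lower) against 142.3 and 304.0 (2.14-fold higher). AHNAK, a giant scaffold protein gene, read 1916 and 1971 against 472.5 and 2069, and MEST, an imprinted gene, 204.4 and 1391 (6.81-fold higher) against 21.5 and 971.3 (45.2-fold higher).

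The only test available averages the medium label over both DACH1 states, in a limma fit of the 4 arrays with 1 residual degree of freedom. Of 12103 genes tested, 1860 (15.4%) were higher and 1529 (12.6%) lower labelled serum-free at an adjusted p of 0.05. Before adjustment 5526 genes had a p under 0.05. These calls, and the list counts that follow, need the filter on low signals: without it limma gave 0 higher and 0 lower calls, although 4529 of 19775 had an unadjusted p under 0.05. It called 935 lower with no floor and 2304 lower after median centring. Its error is the DACH1-by-medium difference of single arrays. The labels name no repeated cultures, so the p-values do not measure a spread among cultures. They set the medium difference against how unequal it was in the 2 pairs, which may be technical. By this fit 29 of 30 G2 and M phase genes and 20 of 27 S phase genes rose, 7 of 9 histone genes fell, and 12 of 13 collagen folding genes rose. Cytokine and NF-kB genes fell in 19 of 26 cases and ERK feedback genes in 10 of 19, with 0 higher in both lists. Genes of hypoxia and glycolysis rose in 15 of 27, contractile genes in 12 of 19 with 1 lower, and cholesterol synthesis genes in 1 of 18 with 0 lower. GALNT5 (adjusted p = 0.973 in limma), TGFA (0.492) and HMGCS1 (0.206) were not called, nor was DKK1 (0.122). Each differed between the pairs as given above, which this fit takes as error, so the missing call is no separate result. DACH1 itself fell by 2.15 on the log2 scale (SE 0.20, lower in 2 of 2 pairs) labelled serum-free, at an adjusted p of 0.0177 in limma.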

How the data were processed

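The table deposited by the authors holds linear signal intensity for each probe set, and the submitters' processing notes name MAS5. The sources used here give no version, target intensity or chip definition. Each array gave 54613 probe sets, with medians from 15.7 to 19.3, and means trimmed by 2% per end from 99.63 to 99.65. Per the labels' protocols, 6 µg of total RNA went into the labelling of each sample.

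Probe sets were named from GEO's platform annotation, and Entrez identifiers updated the symbols of 99.9% of the 41091 with 1 gene. Those with several genes (1801) or unlisted (11721) were left out. A gene was read from its brightest probe set by mean log2 signal over 4 arrays. Signals were floored at the 40th percentile of all signals (10.9), and a gene was compared if 1 array reached the median (17.2), or 2 arrays in the limma fit. That fit used lmFit and eBayes with DACH1 state and medium as terms, with Benjamini-Hochberg adjustment. It was also run on simulated arrays of independent genes with equal noise. The real arrays differ from these, so that run cannot show whether the calls here hold. The 52 lists hold 967 genes, of which 890 were named. Members and lists were chosen with earlier results of these data known.

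Named genes were DACH1, the 12 highest and 12 lowest measured differences with a signal of 200 or more, 6 bounds per direction, the 10 brightest, the 8 per direction that differed most between the pairs, and up to 8 members of each list with the largest differences plus its 2 brightest. Members named outside that rule illustrate a list and were chosen after their values were seen. Of 35116 RefSeq promoters (GRCh38.p14), 1 per gene (27305) was searched over 250 bases upstream. Alternatives were quantile normalization, median centring, other floors and filters, other probe set rules and a trend in the variance prior. The tools were limma 3.58.1 in R 4.3.3, and pandas 2.3.3 and numpy 2.4.6 in Python 3.11.15.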

Additional observations from a re-analysis of the deposited data

Results flagged for a closer look

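In 4 genes with a signal of 200 or more in each pair, the medium label went at least 2-fold opposite ways in induced and silenced cells. The difference between the pairs was not tested, since each value rests on 1 array a side. EPB41L4B had a log2 difference of -1.46 in induced and 1.13 in silenced cells. TBC1D2 had -1.44 and 1.10. GALNT5 had 2.17 and -2.29. GLIS3, a Krüppel-like zinc finger gene chosen after its values were seen, had 1.22 and -1.20, with signals of 132.6 labelled serum and 309.7 labelled serum-free in induced cells and of 735.8 and 319.7 in silenced cells.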

How the results depend on the processing

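Each condition has 1 array, so there were no replicate numbers to use as a block and no replicate could be left out; the limma fit pairs the arrays by DACH1 state. Of 56 counts of genes under the alternatives, 50 stayed within 1.5 times the value reported, and so did 821 of 936 counts of list members. Of 468 list medians 407 moved by less than 0.25, and 4 changed sign. Of 3850 differences of the 460 named genes, 3727 kept their direction and their side of 2-fold, 83 passed 2-fold no longer, 35 newly passed it and 5 changed sign. With a floor of 50 and an array at 100 or more, 1078 genes were higher in induced and 1158 in silenced cells. The limma fit called 2304 genes lower under median centring and 935 with no floor, and 0 higher and 0 lower with no filter (4529 of 19775 genes had an unadjusted p under 0.05). List medians that changed sign were retinoid and thyroid response (0.26, every array at the median) and CDK inhibitors and quiescence (0.12, mean of all probe sets). BMP and ID genes (-0.46) and Wnt (-0.73) changed sign without _x_at and _s_at probe sets. Genes that did were IDI1 (0.02) and LPCAT3 (0.13) with the mean of all probe sets, and TAGLN (-0.93), IDI1 (1.41) and SLC11A2 (0.30) without _x_at and _s_at probe sets. For all of these the cause was not tested. Signals near background limit the dim genes: 620 of 2987 calls had no array at or above 50.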
